A study of Mus musculus with 6 samples.

Results

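The mRNAs described here encode the proteins of the cytosolic ribosome. They were chosen by gene symbol: a transcript model was a member when at least 50% of its exon bases lay in the span of a protein-coding mouse gene whose symbol begins with Rpl or Rps, without the Rps6k kinases, the pseudogenes and the mitochondrial ribosomal proteins, and the model with the most reads was kept for each gene. Of 89 such genes in the RefSeq table, 59 had a model, 36 of the large and 23 of the small subunit, among 7959 models in all. Of the 59 models, 58 lay wholly in their span, and that of Rps25 lay in it for 88.6% of its bases, so no member stood near the 50% limit. The other 30 genes, among them Rpl10, Rps6, Rps4x, Rps27a and Rpl15, were not analysed here because no model met the rule. The list also takes in Rps19bp1 and Rps23rg1 by their symbols, and neither had a model.

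RNA was sequenced from MEL cells, a mouse erythroleukemia line labelled as strain C57BL/6, grown in roller bottles, whose chromatin was crosslinked with formaldehyde. The 3 groups held 2 libraries each: input chromatin, chromatin pulled down with the polyamide probe TH59-DB, which was made to bind telomeres, and chromatin pulled down with masked TH59-DB, the negative control. No genotype or drug differed between the groups, and a single cell line was used. Whether the paired libraries of a group stem from independent cultures is not stated in the labels, so p-values speak only to variation among these libraries, which may be technical. The library with no number in its label is called library 1 here.

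The ribosome is assembled in the nucleolus from ribosomal RNA and ribosomal proteins, which are translated in the cytoplasm and imported into the nucleus. Most ribosomal protein mRNAs are short, abundant and spliced, and begin with a C followed by a run of pyrimidines, the terminal oligopyrimidine (TOP) tract, through which their translation follows growth signals. Several of these genes carry small nucleolar RNAs (snoRNAs) in their introns, and mutations in several others cause Diamond-Blackfan anaemia, in which red cell precursors fail, so the family is much studied in erythroid cells.

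The TOP tract is the sequence feature for which these mRNAs are known, and it is shown at the RefSeq start sites of 4 members that recur in the results. Each line gives the sense strand, GRCm38.p6 (mm10) coordinates and, in capitals, the pyrimidine run that begins at the annotated start.
Rpl28 (chr7:4792925-4792979, plus strand): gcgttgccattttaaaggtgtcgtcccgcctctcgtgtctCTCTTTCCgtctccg
Rps10 (chr17:27635230-27635284, minus strand): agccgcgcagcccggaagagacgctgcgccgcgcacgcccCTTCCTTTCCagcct
Rps21 (chr2:180257339-180257393, plus strand): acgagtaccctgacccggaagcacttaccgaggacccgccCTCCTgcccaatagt
Rplp2 (chr7:141447611-141447665, plus strand): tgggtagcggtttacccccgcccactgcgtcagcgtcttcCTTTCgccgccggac

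RefSeq promoter windows of 300 bases, 250 before and 50 after an annotated start, were found for 46 of the 59 members, 53 windows in all. A C followed by 4 bases that are each C or T stood exactly at the annotated start, same strand, in 9 member windows (17.0%), against 2.51% of all 32851 windows. With a looser search, chosen after the values were seen, a C followed by 5 such bases lay within 50 bases of the start in 48 member windows (90.6%), against 58.1% of all windows.

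Because the probe was directed at telomeres, whose repeat unit is TTAGGG, this unit was searched on both strands of the same windows. It stood in 6 member windows (11.3%), against 10.6% of all windows. A pair of units in tandem, on either strand, stood in 0 member windows and in 4 windows of the whole table. The 6 sites are shown with the unit, or its complement CCCTAA, in capitals.
Rpl13 (chr8:123102178-123102223, plus strand): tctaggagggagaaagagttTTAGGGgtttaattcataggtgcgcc
Rpl22 (chr4:152325552-152325597, plus strand): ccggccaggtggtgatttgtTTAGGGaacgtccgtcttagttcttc
Rpl26 (chr11:68901336-68901381, plus strand): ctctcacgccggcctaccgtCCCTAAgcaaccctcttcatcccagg
Rpl41 (chr10:128549171-128549216, minus strand): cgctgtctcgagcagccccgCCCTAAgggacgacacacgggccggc
Rpl6 (chr5:121204362-121204407, plus strand): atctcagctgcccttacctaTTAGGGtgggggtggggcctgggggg
Rps18 (chr17:33955744-33955789, minus strand): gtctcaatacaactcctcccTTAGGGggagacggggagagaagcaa

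The windows holding a match describe letters only, and most members had none. The fitted log2 fold change between the TH59-DB and input libraries had a median of -1.62 over the 6 members with the unit and -1.90 over the 40 whose windows held neither orientation. Between TH59-DB and masked TH59-DB the medians were -0.83 and -0.89. For the 9 members with the tract at the annotated start the medians were -2.09 against input and -0.91 against masked TH59-DB, beside -1.77 and -0.85 for the other 37.

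The library totals ran from 1803723 to 3122558 reads, of which 35.7% to 69.2% lay in the models, and the 59 members held 6567 to 46624 reads per library. Masked TH59-DB 1 stood apart: a single model in the span of Zc3h7a (chr16:11143911-11144324) held 50.8% of its reads, against 2.77% to 20.8% in the other libraries, and 4341 models had 0 reads there, against 0 to 1884 elsewhere. No model had under 5 reads in TH59-DB 1, and members were measured only where the authors had a model. The models may have been chosen on that library, which would bear on the values of all models beside which the members are set, and its part in them was not tested. Of the 28 erythroid marker genes, 14 had a model, among them Gata1 and Klf1, while the globin genes had none, and 2 of 12 markers of other blood cells had one.

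The ribosomal protein mRNAs took a smaller share of the TH59-DB libraries than of any other library. Their models held 0.935% (95% exact Clopper-Pearson interval 0.924 to 0.946) and 1.63% (1.62 to 1.65) of the reads of the 2 input libraries. The masked TH59-DB libraries had 0.494% (0.484 to 0.503) and 1.14% (1.13 to 1.15), and the TH59-DB libraries 0.364% (0.355 to 0.373) and 0.328% (0.321 to 0.335). The intervals cover counting error only, not the spread between libraries. They treat reads as independent draws, though the reads carry no molecular identifiers by which copies could be told apart. As shares of the library totals, the TH59-DB libraries lay close together and below the other 4. The libraries within the input and within the masked group were far apart. The edgeR fit scaled these totals by TMM normalization factors, 0.772 and 1.20 in input and 0.892 and 1.34 in masked TH59-DB. In TH59-DB the factors were 1.33 and 0.681, so how far apart the libraries of a group lay depends on the scaling.

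The mean share was 1.28% ± 0.494 (SD, n = 2) in input, 0.815% ± 0.455 in masked TH59-DB and 0.346% ± 0.0254 in TH59-DB. Input was thus 3.71-fold and masked TH59-DB 2.36-fold above TH59-DB, and input 1.57-fold above masked TH59-DB. An exact permutation test of 2 libraries against 2 cannot give a 2-sided p below 0.333, so no test was made on the shares. As shares of a library, the values cannot tell fewer ribosomal protein mRNA molecules, or fewer cells, from more of other RNA.

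The share was also taken of the reads in models after leaving out the Zc3h7a-span model and the other largest model, chr17:39842884-39848988, which lay in no gene span. It was then 3.23% and 7.01% in input, 4.36% and 5.23% for the masked probe, and 1.26% and 1.15% for TH59-DB. On this scale the masked libraries lay between the 2 input libraries and the ratio of input to masked TH59-DB was 1.07, while masked TH59-DB stood 3.98-fold and input 4.25-fold above TH59-DB.

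**Figure D1:**
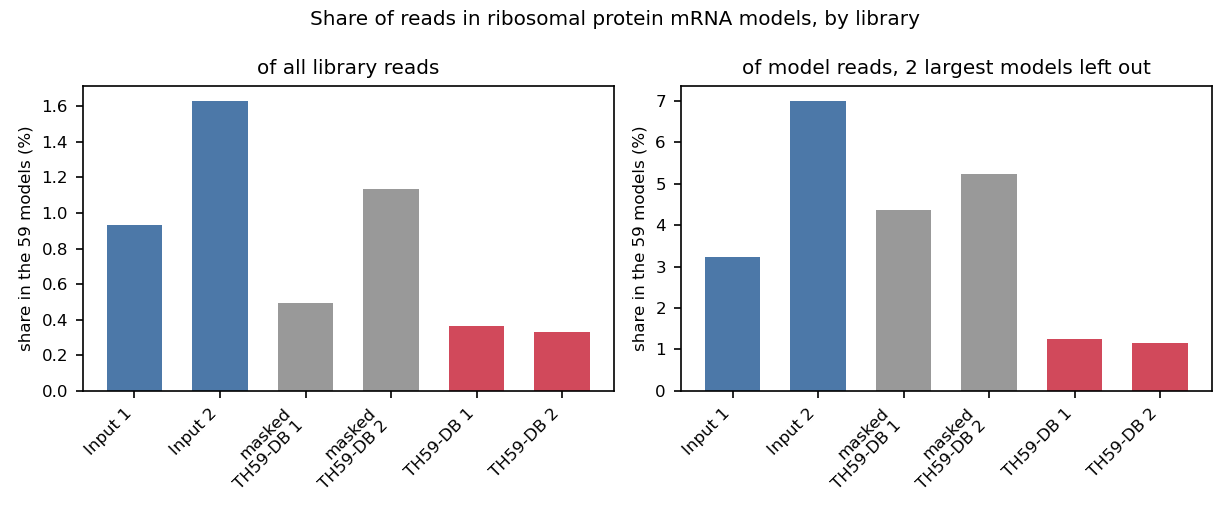
Share of reads in the 59 ribosomal protein mRNA models in each of the 6 libraries, in percent of all library reads (left) and of model reads without the 2 largest models (right); each bar is 1 library. Both TH59-DB libraries (0.364% and 0.328% on the left) lie below the other 4 on both scales.

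Levels of single mRNAs are given in CPM, reads per 1000000 of the library total, and compared between genes only in FPKM, the authors' value per base of model length and per read of the library total. In the input the most abundant member by FPKM was Rplp2, a protein of the acidic stalk that recruits elongation factors, with a mean of 4006 FPKM. Rplp1, its stalk partner, followed at 1602 FPKM, then Rpsa, the small-subunit protein also known as the laminin receptor, at 1189, Rpl26 at 898 and Rpl22 at 729. The lowest was Rpl7l1, a paralog of Rpl7, at 56.0 FPKM, and the median member had 432 FPKM.

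Rplp2 (model chr7:141447992-141451267, 4 exons) had 704 and 1107 CPM in input, 759 and 863 with the masked probe, and 475 and 272 with TH59-DB. Both TH59-DB values were below the other 4, and the masked values lay within the input range. It kept the first FPKM rank in every group, with means of 3588 FPKM in masked TH59-DB and 1654 in TH59-DB. Its fitted log2 fold change was -1.28 (SE 0.79) against input and -0.98 (SE 0.78) against masked TH59-DB, which did not pass in the edgeR quasi-likelihood test (Benjamini-Hochberg adjusted p = 0.57 and 0.869).

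Rplp1 had 486 and 725 CPM in input, 239 and 490 with the masked probe, and 170 and 142 with TH59-DB. Rplp0, the stalk's base, had 252 and 316 CPM in input, 26.9 and 151 with the masked probe, and 44.4 and 52.5 with TH59-DB. Masked TH59-DB 1 was the lowest of all 6 libraries for Rplp0, whereas for Rplp1 it lay above both TH59-DB libraries. Of the stalk genes, Rplp0 had the most negative value against input at -2.42 (SE 0.82, edgeR adjusted p = 0.184), and Rplp1 stood at -1.88 (SE 0.76, adjusted p = 0.277).

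Rpsa had 538 and 1121 CPM in input, 399 and 755 with the masked probe, and 258 and 196 with TH59-DB. Its groups did not overlap between TH59-DB and either other group, and its log2 fold changes were -1.76 (SE 0.79) against input and -1.07 (SE 0.77) against masked TH59-DB. Rpl4, a large-subunit protein whose loop lines the exit tunnel, had 581 and 800 CPM in input, 182 and 437 with the masked probe, and 140 and 129 with TH59-DB. It was lower in every pull-down library than in either input library, and its model had the most exons of any member, 9.

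**Figure D2:**
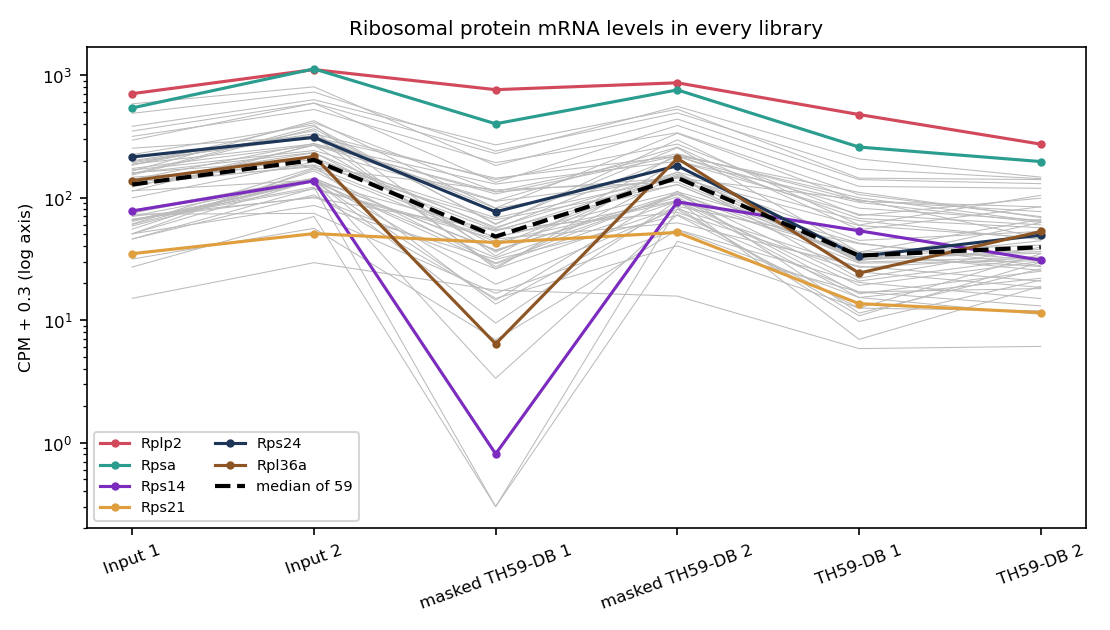
Level of each of the 59 member mRNAs in the 6 libraries, in CPM plus an offset of 0.3 on a log axis; thin lines join the values of 1 gene and carry no order, 6 genes are coloured, and the dashed line is the median. The median is 33.3 and 39.0 CPM in the TH59-DB libraries and 47.7 to 202 CPM in the others, and Rps14 and Rpl36a are lowest in masked TH59-DB 1.

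Every one of the 59 mRNAs was lower in both TH59-DB libraries than in both input libraries. This held for 23.5% of all 5385 models tested and 42.5% of the other 1689 tested spliced models in spans of protein-coding genes. The members thus stood above both backgrounds, a comparison chosen after the values were seen. Both backgrounds were far less abundant: the median input level was 168 CPM over the members, 7.62 over all tested models and 17.2 over the other spliced models. The part of level in this and the later comparisons with these backgrounds was not tested. With CPM scaled by the TMM factors of the fit, it also held for all 59, beside 29.3% and 51.7%. All 59 passed the filter on low counts. The TH59-DB mean was 15.4% of the input mean for Rps10 and 42.8% for Rpl36, with a median over members of 26.2%; 17 members kept under 20%, 28 between 20% and 30%, and 14 over 30%. All fitted log2 fold changes were negative (49.1% of all tested models and 74.2% of the other spliced models were), from -2.49 to -1.17 with a median of -1.78, beside 0.03 over all tested models and -0.60 over the other spliced models.

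No single member passed at an adjusted p under 0.05 in the edgeR quasi-likelihood test, where 0.0371% of all models passed as lower and 3.58% as higher, and the smallest adjusted p of a member was 0.0917. At an unadjusted p under 0.05, 42 of the 59 were lower and 0 higher, where the background was 5.14% lower and 8.86% higher over all models, and 7.46% lower over the other spliced models. DESeq2 called 3 lower, among them Rpl4 and Rps24, with log2 fold changes of -1.92 and -2.13, where it called 0.569% of its models lower and 5.47% higher. With library sizes that leave out the 2 largest models edgeR called 21 lower, beside 1.66% of all models in that fit, and without TH59-DB 2 it called 4, beside 0.183%. The members' median was -1.15 when TH59-DB 1 was left out and -2.66 when TH59-DB 2 was.

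The most negative member was Rpl28, a large-subunit protein (model chr7:4792985-4793621, 3 exons, with the TOP tract shown above). It had 45.6 and 105 CPM in input, 14.7 and 40.0 with the masked probe, and 12.2 and 11.6 with TH59-DB. The pull-down libraries were all below the input libraries, and the log2 fold change of TH59-DB against input was -2.49 (SE 0.68, edgeR adjusted p = 0.0917).

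Rps24, which takes part in maturation of the small-subunit RNA and is mutated in Diamond-Blackfan anaemia, had 214 and 309 CPM in input, 76.1 and 181 with the masked probe, and 32.7 and 49.0 with TH59-DB. The 3 groups did not overlap. Its log2 fold change against input was -2.47 (SE 0.75, edgeR adjusted p = 0.133).

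Rps10, a small-subunit protein that is ubiquitinated when ribosomes collide and is also mutated in Diamond-Blackfan anaemia, had 45.6 and 118 CPM in input, 47.7 and 94.2 with the masked probe, and 6.65 and 18.5 with TH59-DB. Here the masked libraries lay within the input range, and TH59-DB alone stood below. It was the member with the most negative value against masked TH59-DB, at -1.95 (SE 0.81, edgeR adjusted p = 0.406), and stood at -2.30 (SE 0.81) against input.

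Rpl41, the smallest ribosomal protein, had 113 and 269 CPM in input, 111 and 145 with the masked probe, and 31.0 and 35.9 with TH59-DB. The lower masked value was just under the input range and TH59-DB lay far below it, with log2 fold changes of -2.29 against input and -1.61 against masked TH59-DB (edgeR adjusted p = 0.133 and 0.429).

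Among the least negative members against input were Rpl36 (-1.17), Rpl13 (-1.20), Rpl12 (-1.23) and Rplp2 (-1.28). Rpl36, a large-subunit protein, had 140 and 276 CPM in input, 107 and 218 with the masked probe, and 110 and 68.4 with TH59-DB, so the masked and TH59-DB ranges overlapped. The Rpl13 model was the only one with a single exon, 151 bases long, and had 50.2 and 85.8 CPM in input, 31.0 and 71.1 with the masked probe, and 12.2 and 34.4 with TH59-DB. Rpl12 had 135 and 232 CPM in input, 55.3 and 216 with the masked probe, and 81.5 and 64.9 with TH59-DB.

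The subunits had similar values. The median log2 fold change against input was -1.78 over the 36 large-subunit and -1.85 over the 23 small-subunit members, and the large subunit took 65.6% to 67.9% of the members' reads in all 6 libraries. Rpl5 and Rpl11, which join the 5S ribosomal RNA in a particle that also binds the p53 regulator Mdm2, stood at -2.02 and -1.77. The 9 members on a short list of Diamond-Blackfan anaemia genes, which leaves out others known for the disease, had a median of -2.02, and the most negative was Rps24 (-2.47). Rps19, the gene most often mutated in that disease, had 146 and 184 CPM in input, 65.5 and 127 with the masked probe, and 30.5 and 37.5 with TH59-DB, at -2.14 (SE 0.68, edgeR adjusted p = 0.153). Across the 59 members, the value against input had a Spearman correlation of -0.18 with model length, -0.16 with exon number and 0.07 with input level, given as a description of genes measured in the same libraries.

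**Figure D3:**
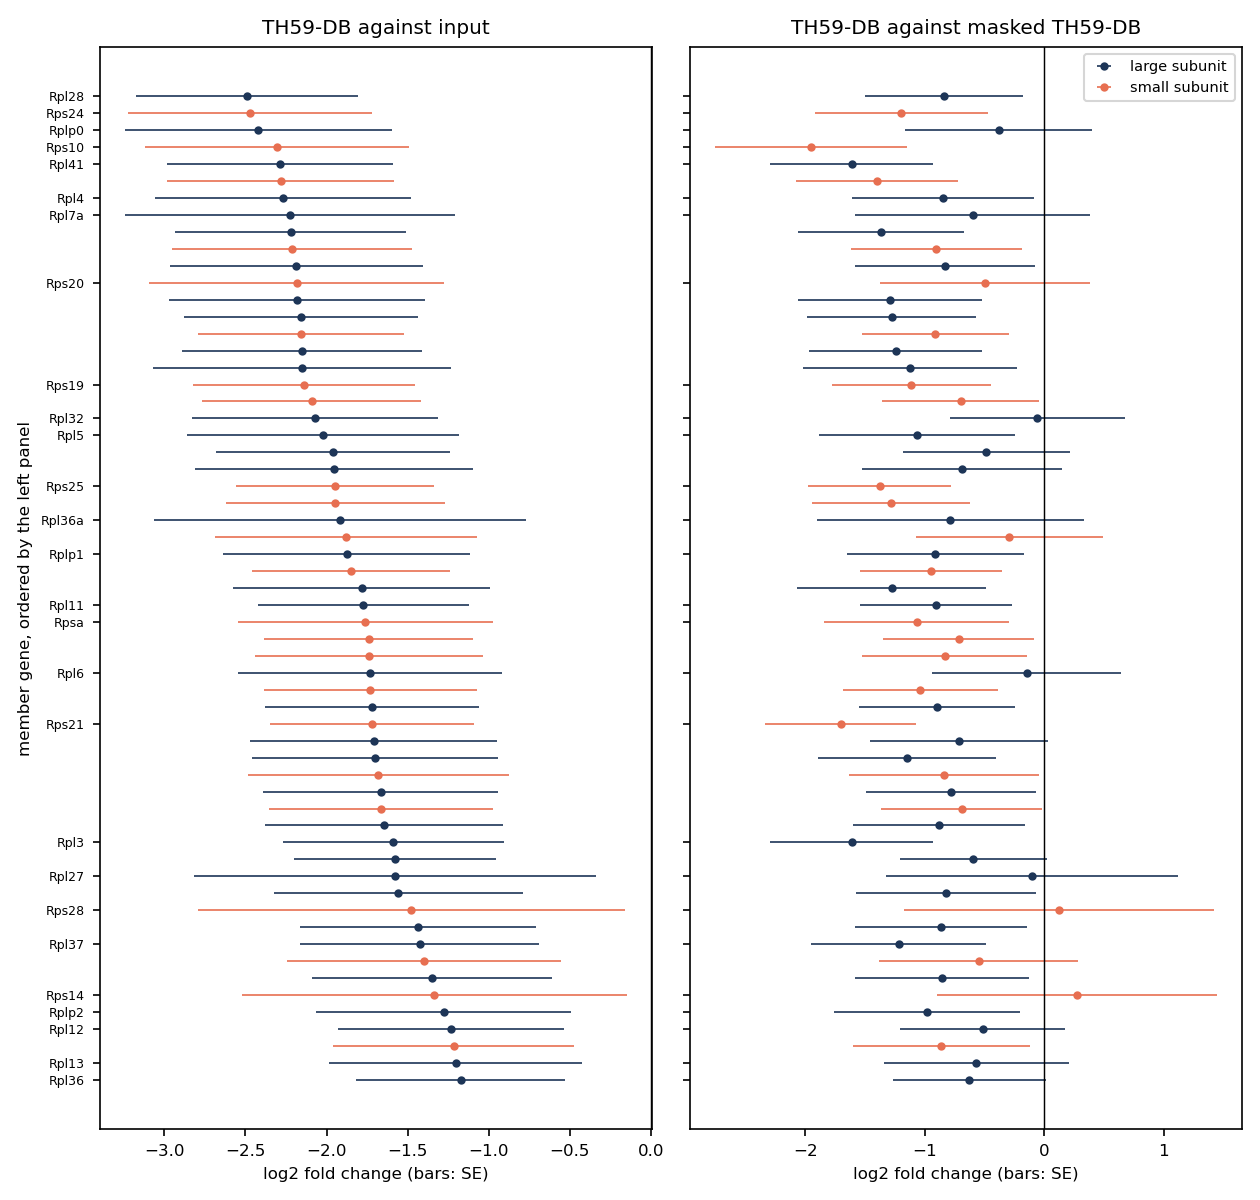
Fitted log2 fold change of each member in TH59-DB against input (left) and against masked TH59-DB (right), with bars of 1 standard error and colours for the subunits; the members discussed most are labelled, and the x axes differ. All 59 lie below 0 on the left, from -2.49 (Rpl28) to -1.17 (Rpl36), and 57 of 59 on the right, where Rps14 and Rps28 lie above 0.

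The comparison with masked TH59-DB asks what the probe brought down beyond the control. Of the 59 members, 57 had a negative log2 fold change, beside 40.4% of all tested models and 57.2% of the other spliced models, and the median was -0.86, beside 0.30 and -0.19. The 2 positive values were Rps14 (0.27) and Rps28 (0.13), which were negative with library totals in place of TMM (-0.15 and -0.47). In 34 members, 19 of the large and 15 of the small subunit, both TH59-DB libraries were below both masked libraries in CPM. The background was 14.7% over all models and 23.4% over the other spliced models. With CPM scaled by the TMM factors of the fit, the count was 30 members (50.8%), beside 13.4% and 21.1%. In CPM of the library totals, 0 members lay above both masked libraries in both TH59-DB libraries, against 16.1% of all models. Both TH59-DB libraries lay below masked TH59-DB 2 in all 59, a count that was not taken over all models.

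Of the 59 members, 0 passed in either direction in the edgeR quasi-likelihood test at an adjusted p under 0.05, as did 0% of all models for lower values and 1.41% for higher. The smallest adjusted p of a member was 0.314. At an unadjusted p under 0.05, 5 members were lower (Rps21, Rps10, Rpl3, Rpl41 and Rps25) and 0 higher, against a background of 1.69% lower and 8.26% higher over all models and 2.66% lower over the other spliced models, and DESeq2 called 0. With library sizes that leave out the 2 largest models edgeR called 3 lower, Rpl3, Rpl41 and Rps10, beside 0.511% of all models in that fit. These outcomes at 2 libraries a group do not show that the levels were alike.

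The most negative values after Rps10 were those of Rps21 (-1.70), Rpl3 (-1.61) and Rpl41 (-1.61). Rps21, a small-subunit protein (TOP tract above), had 34.5 and 50.4 CPM in input, 42.6 and 51.6 with the masked probe, and 13.3 and 11.2 with TH59-DB. Rpl3, which lies near the peptidyl transferase centre, had 60.6 and 175 CPM in input, 115 and 133 with the masked probe, and 31.6 and 34.8 with TH59-DB. For Rpl3 the masked values lay within the input range. For Rps21 the masked value of 42.6 CPM lay within it and that of 51.6 CPM just above it. For both genes TH59-DB lay below both groups.

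The values nearest 0 or above it belonged to members that were low in masked TH59-DB 1, a library that enters these values. Rps14, whose loss on the long arm of human chromosome 5 impairs red cell formation, had 77.4 and 136 CPM in input, 0.507 and 91.9 with the masked probe, and 53.2 and 30.5 with TH59-DB. The 0.507 CPM in masked TH59-DB 1 is 1 read, where the median member had 94 reads in that library. Rps28 had 65.7 and 121 CPM in input, 0 and 80.7 with the masked probe, and 26.6 and 32.1 with TH59-DB.

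Rpl27 had 26.8 and 69.7 CPM in input, 0 and 43.6 with the masked probe, and 16.6 and 12.7 with TH59-DB. Rps28 and Rpl27 were the 2 members with 0 reads in any library; at that depth a count of 0 allows up to 3 reads, or 1.52 CPM. Rpl32 (13.2 and 84.6 CPM in masked TH59-DB, 41.6 and 30.1 in TH59-DB) and Rpl6 (25.9 and 197, and 90.9 and 62.2) showed the same split between the masked libraries. In all, 14 members had their lowest value of the 6 libraries in masked TH59-DB 1: Rpl12, Rpl26, Rpl27, Rpl27a, Rpl32, Rpl36a, Rpl6, Rpl7a, Rplp0, Rps14, Rps18, Rps2, Rps20 and Rps28. The same count was not taken over all models, of which 4341 of 7959 had 0 reads in that library, so it does not mark the family.

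Without masked TH59-DB 1 all 59 values were negative, with a median of -1.19. Without masked TH59-DB 2 the median was -0.72 with 43 negative, beside 5.10 over all tested models, and edgeR called 3 higher, Rpl27, Rps14 and Rps28, the members with 0 or 1 read in the remaining masked library, where 20.6% of all models were called higher. The value also rested on the TH59-DB library used: the median was -0.29 with TH59-DB 1 left out and -1.59 with TH59-DB 2 left out. The part of masked TH59-DB 1's large Zc3h7a-span model in these differences was not tested.

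With masked TH59-DB set against input, 58 of 59 log2 fold changes were negative (58.9% of all tested models and 72.4% of the other spliced models were), with a median of -0.90 beside -0.26 and -0.47. Both masked libraries lay below both input libraries for 15 members, where the background was 14.4% over all models and 15.8% over the other spliced models, and above both for 0 members, against 15.9% of all models. On CPM scaled with the TMM factors of the fit, the count was 48 members (81.4%), beside 27.8% of all models and 37.4% of the other spliced models, so it depends on the scaling. Masked TH59-DB 1 lay below both input libraries for 54 members and masked TH59-DB 2 for 15, counts that were not taken over all models. On library sizes that leave out the 2 largest models the median was -0.39, beside 0.23 over all models, and without masked TH59-DB 1 it was -0.57.

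Of the 59, 0 were called in edgeR's quasi-likelihood test at an adjusted p under 0.05 (background 0% lower and 0.26% higher), 3 were lower at an unadjusted p under 0.05 (Rpl32, Rplp0 and Rpl28) and 0 higher, with a background of 2.95% lower and 3.86% higher and of 2.37% lower among the other spliced models, and DESeq2 called 0. The lowest values were Rplp0 (-2.04), Rpl32 (-2.01), Rps20 (-1.69), Rpl28 (-1.65) and Rpl7a (-1.63). Without masked TH59-DB 2 edgeR called 5 lower, Rpl27, Rpl36a, Rpl7a, Rps14 and Rps28, where 14% of all models were called lower, and without any other single library 0. Rpl36a had 137 and 216 CPM in input, 6.09 and 208 with the masked probe, and 23.8 and 52.5 with TH59-DB, and Rpl7a had 50.2 and 138, 3.04 and 72.4, and 16.6 and 17.8. Each lay within its input range in masked TH59-DB 2 and far below it in masked TH59-DB 1.

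The highest values were Rpl3 (0.02), Rps21 (-0.01), Rpl37 (-0.21), Rplp2 (-0.30) and Rps10 (-0.35), of which Rps21 and Rpl37 were positive with library totals in place of TMM (0.15 and 0.015). Rpl3, Rpl37 and Rps21 had a higher mean CPM in masked TH59-DB than in input, and Rpl37 and Rps21 were the members whose highest library was masked TH59-DB 2. Rpl37 had 65.0 and 135 CPM in input, 52.8 and 149 with the masked probe, and 21.6 and 39.0 with TH59-DB. Rps10, Rps21, Rpl3 and Rpl41, among the lowest against masked TH59-DB, all had masked levels within or above the input range or just under it. The masked level is itself part of the value by which these members were picked.

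**Figure D4:**
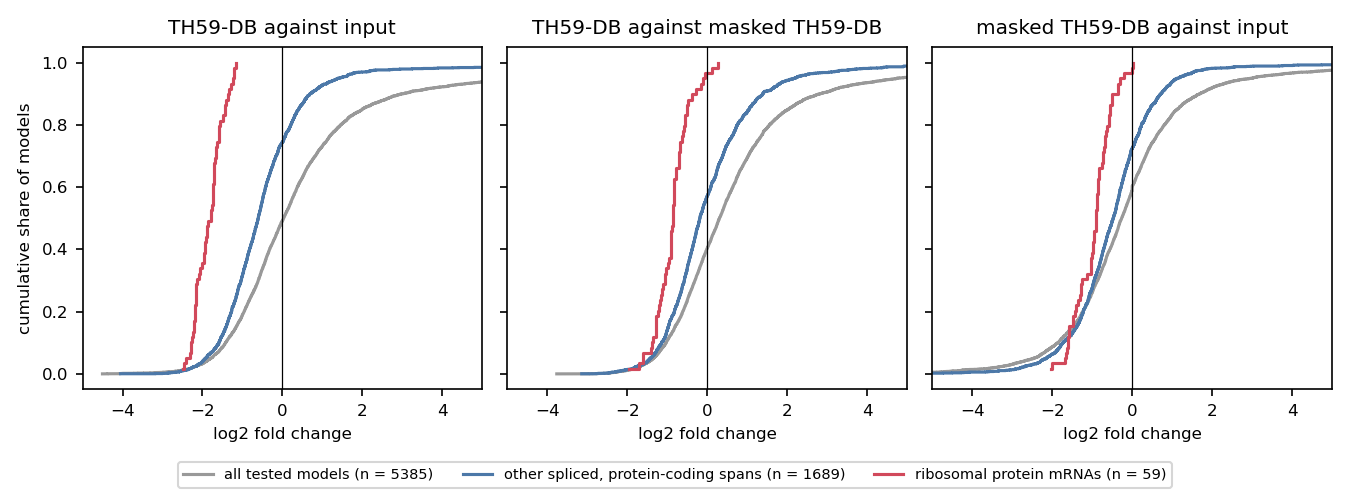
Cumulative share of models at or below each fitted log2 fold change, for all 5385 tested models, the other 1689 spliced models in protein-coding spans and the 59 ribosomal protein mRNAs, in the 3 comparisons; the x axis is limited to -5 to 5. The member curve lies left of both others over most of its range in the comparisons of TH59-DB, with medians of -1.78 and -0.86, and closer to them in masked TH59-DB against input (-0.90).

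In CPM of the library totals, the libraries of the input and masked groups differed for nearly the whole family. All 59 members were higher in input 2 than in input 1, and 58 were higher in masked TH59-DB 2 than in masked TH59-DB 1, the exception being Rpl7l1 (17.3 and 15.4 CPM). In TH59-DB, 31 members were higher in library 1. These counts were not taken on CPM scaled with the TMM factors, which differed between the libraries of each group. That scaling divides by the factor, 1.33 for TH59-DB 1 but 0.681 for TH59-DB 2, so the count of 31 would fall. It turns the order for Rplp2 (475 and 272 CPM) but not for Rpl10a (95.9 and 46.3 CPM). Scaling also raises input 1 (factor 0.772) against input 2 (1.20). There the order turns for Rps27 (72.7 and 73.9 CPM) but not for Rpl28 (45.6 and 105 CPM). The order of members by CPM was nonetheless alike in most libraries: the Spearman correlation over the 59 was 0.921 between the input libraries, 0.957 between masked TH59-DB 2 and TH59-DB 2, and 0.684 to 0.774 between masked TH59-DB 1 and the others. These are descriptions of mRNAs that share a library. The 10 members with the most reads, picked anew in each library, held 42.3% to 54.4% of the family's reads there. The highest share was in masked TH59-DB 1, where Rplp2 alone held 15.4%, against 6.78% to 13.1% elsewhere.

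Of the 59 genes, 23 hold at least 1 snoRNA gene in their span, and their median against input was -1.76, beside -1.83 for the 36 without one. In 8 of the hosts 12 models were assigned to snoRNA genes, such as Snord15a and Snord15b in Rps3, which guide modification of ribosomal RNA. A model could be up to 8 times as long as its snoRNA gene, and the 12 were 91 to 521 bases long. Some reached into the host model, such as that of Gm26448 (chr9:120129151-120129552) into that of Rpsa, which starts at 120129254. Reads of snoRNA and host may thus not be told apart in these models. The 12 models summed to 664 and 472 CPM in input, 236 and 469 with the masked probe, and 416 and 239 with TH59-DB, which overlapped across groups. Their 8 host mRNAs summed to 1558 and 3019 CPM, 796 and 2032, and 680 and 562, with TH59-DB lowest. The reads of the snoRNA models per host read were 0.426 and 0.156 in input, 0.297 and 0.231 with the masked probe, and 0.613 and 0.425 with TH59-DB. The TH59-DB ratios lay above both masked ratios, whereas the lower of them was next to that of input 1.

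**Figure D5:**
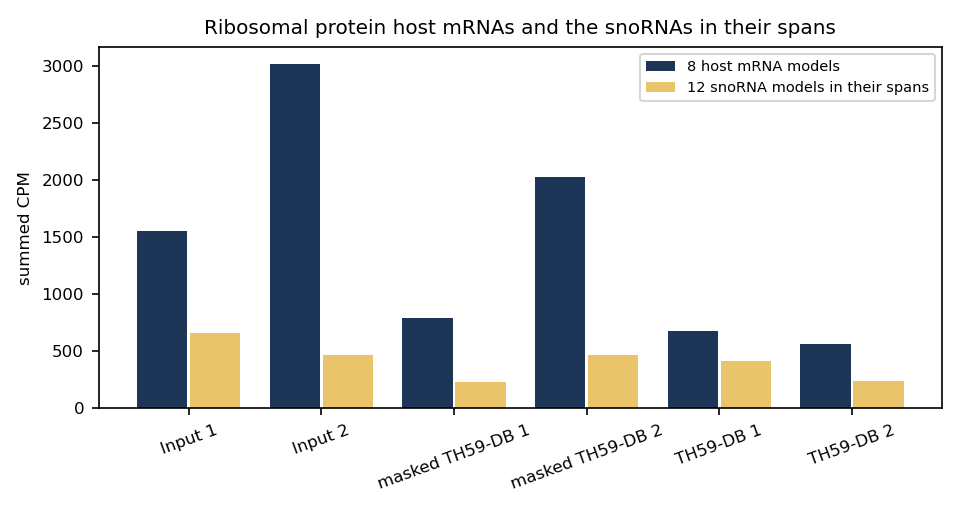
Summed CPM of the 8 ribosomal protein host mRNA models and of the 12 models assigned to snoRNA genes in their spans, in each of the 6 libraries. Some of the 12 reach into a host model. The hosts run from 562 to 3019 CPM with TH59-DB lowest, and the snoRNA models from 236 to 664 CPM without such an order.

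Among related genes from lists described in the same fit, Rack1, a ribosomal protein with another kind of symbol, stood at -2.28 against input (edgeR adjusted p = 0.194), and DESeq2 called it lower. Of 20 other mRNAs known for a TOP start, 12 were tested, and 0 passed edgeR's test in either direction in any of the 3 comparisons. Against input their median was -1.79, 6 of them were lower at an unadjusted p under 0.05, and DESeq2 called 1 lower. Eef1a1, the elongation factor that delivers aminoacyl-tRNA, had 1138 and 1788 CPM in input, 288 and 708 with the masked probe, and 188 and 205 with TH59-DB. The exception in sign was Naca, whose single-exon model of 190 bases stood at 1.75.

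The 26 tested ribosome assembly factors had a median of -0.54 against input, and so had the 17 tested mitochondrial ribosomal proteins. Both lists were less abundant than the members, with median input levels of 24.4 and 11.0 CPM beside 168 CPM, and the part of level was not tested. In each list edgeR and DESeq2 called 0, and 1 was lower at an unadjusted p under 0.05. The other spliced models had a median of -0.60. Against masked TH59-DB these lists stood at -0.19 and 0.02. The 22 models in spans of ribosomal protein pseudogenes had a median of -1.54 against input, and reads of pseudogenes and their parent genes may not be told apart. Summed erythroid marker levels were 535 and 729 CPM in input, 323 and 674 with the masked probe, and 319 and 232 with TH59-DB, the same order of libraries within input and masked TH59-DB as the members, and their part in the members' differences was not tested.

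The family's summed level had a pattern over the 6 libraries most like that of Hk1 and Pkm, glycolytic enzymes (Pearson r = 0.997 for each, on log2 of CPM plus 1), Cct6a, a subunit of the cytosolic chaperonin (0.994), Odc1, the enzyme that begins polyamine synthesis (0.994), and Capg, an actin-capping protein (0.992). These r values are a description over 6 libraries that share their depth and composition. Of the 5302 tested models outside the family, 259 had r over 0.9 and the median was 0.245. Pkm had 334 and 511 CPM in input, 214 and 365 with the masked probe, and 171 and 148 with TH59-DB.

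The members lay on 18 chromosomes. Taking the end of the outermost gene or model as the distal mark of a chromosome, 0 of 59 lay within 1 Mb of it and 3 within 3 Mb, namely Rps21 (1.75 Mb), Rps26 (1.97 Mb) and Rpl41 (2.04 Mb), and the median distance was 50.3 Mb. Against masked TH59-DB these 3 stood at -1.70, -0.90 and -1.61.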

How the data were processed

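Whole-number counts of reads per assembled transcript model were deposited by the authors, beside FPKM values named so per the file headers. The values show that each FPKM is the count divided by model length and a library total. The submitters' processing notes name cutadapt, HISAT2, Cufflinks, featureCounts and mm10, with no versions or roles; whether counting used strand is not given in the sources used here. Library totals were recovered from FPKM and count. Of 7959 models, 7695 matched across files in every exon and 264 in chromosome, length and first start. The looser match was far more common among the members, of which 31 matched in every exon and 28 in first start and length. Among those matched loosely were Rplp2, Rplp1, Rplp0, Rpsa, Rpl4, Rps24, Rpl41 and Rpl36. The part of the looser match in the members' values was not tested. Gene spans, symbols and promoter windows are RefSeq's for GRCm38.p6.

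Counts were fitted with edgeR 4.0.16 in R 4.3.3 (filterByExpr, TMM on the recovered totals, robust quasi-likelihood F-tests, 2-sided, 1 fit of 6 libraries with a group term). This kept 5385 models at a biological coefficient of variation of 0.702. P-values were adjusted by Benjamini-Hochberg over all of them, and 0.05 was the threshold. DESeq2 1.42.0, other library sizes, no filter, a replicate block, only the groups compared, each library left out and summed models were alternatives. On simulated data with a dispersion of 0.05 the TH59-DB against input test recovered 82.4% of 4-fold changes, and with 0.5 it recovered 0% of 4-fold and 15.7% of 16-fold changes. The members and lists were chosen with earlier results of these data known. Single genes named are the 5 highest and 5 lowest in each comparison, the 10 most abundant in input, the stalk genes, Rpsa, Rpl5, Rpl11 and Rps19, and members called, of which some are not reported here; Rps27a had no model, and Rpl36a, Rps25, Rps26 and the snoRNA hosts were named after their values were seen.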

Additional observations from a re-analysis of the deposited data

How the results depend on the processing

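The sign of the members' median log2 fold change was negative in all 3 comparisons under every alternative run. Leaving out 1 library, it ranged from -2.66 to -1.15 in TH59-DB against input, -1.59 to -0.29 against masked TH59-DB and -1.11 to -0.57 in masked TH59-DB against input; the extremes of the TH59-DB comparisons came from leaving out a TH59-DB library. Members called lower ranged from 0 to 4 in TH59-DB against input (4 without TH59-DB 2: Rpl7, Rpl9, Rps10 and Rps24) and 0 to 5 in masked TH59-DB against input. Members called higher ranged from 0 to 3 in TH59-DB against masked TH59-DB, 3 without masked TH59-DB 2. The shares ranged from 0.935% to 1.63% in input, 0.494% to 1.14% in masked TH59-DB and 0.328% to 0.364% in TH59-DB.

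In TH59-DB against input the members called lower numbered 3 with DESeq2, 1 (Rps24) with library totals and no TMM (0.427% of all models), 21 with library sizes without the 2 largest models, and 2 (Rpl28 and Rps27) with only the 2 groups fitted (1.25%). Against masked TH59-DB, library sizes without the 2 largest models gave 3. In masked TH59-DB against input those library sizes moved the median to -0.39. Of the reads in models the mean shares were 2.70%, 1.68% and 0.768% in input, masked TH59-DB and TH59-DB, and without the 2 largest models 5.12%, 4.80% and 1.21%. With all models of the member genes the TH59-DB share was 0.406%.

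The replicate numbers are shared by the groups, but the deviations of same-numbered libraries correlated at 0.150 (input and masked), 0.120 (input and TH59-DB) and 0.037 (masked and TH59-DB) with 2 numbers only, so they were not taken as pairs. With the replicate block, 22 members were called lower in TH59-DB against input (2.19% of all models were), 1, Rps10, against masked TH59-DB (0.0929%), and 0 in masked TH59-DB against input (0.334%).

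Over the members named by rule and their alternatives, the sign turned 33 times; members outside that rule turned too, since without masked TH59-DB 2 only 43 of 59 values were negative against masked TH59-DB. In TH59-DB against masked TH59-DB, DESeq2 gave Rpl6 0.091, Rpl27 0.23 and Rpl32 0.17, and the replicate block 0.14, 0.70 and 0.12. Leaving out 1 library they ranged from -0.92 to 1.16, -1.09 to 8.21 and -0.77 to 1.05. Rps28 and Rps14 were -0.47 and -0.15 with library totals and ranged from -0.87 to 9.38 and -0.75 to 5.79, highest without masked TH59-DB 2. In masked TH59-DB against input, leaving out 1 library gave ranges of -0.54 to 0.24 for Rps10, -0.47 to 0.23 for Rplp2, -0.40 to 0.22 for Rpl37, -0.18 to 0.47 for Rps21 and -0.19 to 0.75 for Rpl3. Rpl37 was 0.015 with library totals and Rps21 0.26 with DESeq2 and 0.15 both with library totals and with no filter. The cause was not tested. DESeq2, run with its own scaling and no low-count filter, put the median of all models at 1.26 against input and 1.43 against masked TH59-DB, where edgeR with no filter gave 0.77 and 0.94. The median of all models against masked TH59-DB was 0.30 with TMM, 0.083 with library totals and -0.091 without the 2 largest models. Depth was low for Rpl7l1, with 10 and 15 reads in TH59-DB. Rpl27, Rps28 and Rps14 had 0, 0 and 1 reads in masked TH59-DB 1.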
